A study of Homo sapiens with 4 samples.

Results

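The deposited tables named 4783 genes with a Gene Ontology (GO) term as different between HepG2 cells before sonodynamic therapy (SDT, group A) and HepG2 cells after it (group B); genes without such a term could not enter. They were collected as every gene named in any row of the GO table of B against A, and amounted to 21.6% of the 22148 genes of that table's background. Of the 4783, 4768 were protein-coding genes of the GENCODE 29 annotation, 23.9% of its 19951, and 15 were assembled loci without a gene name. The companion list of Huh7 cells, before (group C) against after (group D), held 4369 genes. Both are established lines of human liver tumour cells. The treated cells received lipid nanobubbles loaded with the sonosensitizer HMME (hematoporphyrin monomethyl ether) and with lonidamine (LND), and were exposed to low-frequency ultrasound; the labels describe these bubbles as targeted. The untreated groups are labelled only as the cell line. Each of the 4 groups was 1 library of ribosomal RNA-depleted total RNA, and no group had ultrasound, bubbles or either drug alone, so the effects of ultrasound, HMME and LND cannot be told apart. The tables hold the names of the genes that the authors called differentially expressed. They hold no read count, no expression level and no direction, so "listed" below means only that a gene was called.

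In SDT, ultrasound activates a sonosensitizer inside or near the cell, and reactive oxygen species are formed that damage membranes, proteins and mitochondria. Cells answer such damage with fast transcription of immediate early genes, with the unfolded protein and integrated stress responses, in which the kinases EIF2AK1 to EIF2AK4 lower general translation while the factor ATF4 is made, and with p53, which drives cell cycle arrest and death genes. LND is known to inhibit hexokinase, the mitochondrial pyruvate carrier, monocarboxylate transporters and complex II of the respiratory chain. HMME is a porphyrin, the class of molecule to which heme belongs.

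Between the cell lines, 2281 genes were shared, 47.7% of the HepG2 list and 52.2% of the Huh7 list, and 2502 of the HepG2 genes (52.3%) were absent from the Huh7 list. As a share of all protein-coding genes, those absent from the Huh7 list were 12.5%, and the Huh7 list itself was 21.9% (19.7% of the GO background). With 1 library per group there was no replicate error for any gene, depth is unknown, and a gene's absence from a list is not evidence that it did not change. No difference between the cell lines was tested. Because gene names carry no levels, the identity of the cells could not be checked against the level of liver markers. The list was described with 74 gene lists, each compared with the 23.9% of all protein-coding genes. In total, 49 lists stood above that share, 15 at 2 times it or more and 10 at 0.5 times it or less. Members named below as absent from the Huh7 list are to be read beside the 52.3% of the whole HepG2 list. That percent was 25% for the integrated stress and unfolded protein response list, 27.3% for immediate early genes and 29.1% for histones. It was 43.5% for potassium channels, 53.3% for collagens and 58.3% for the BCL2 family.

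Immediate early genes, which are transcribed within minutes of a stimulus without new protein synthesis, had the highest share of the 74 lists: 22 of 28 (78.6%) were listed. The study's methods do not state the time between treatment and RNA isolation, so how soon after SDT these genes differed is unknown. In Huh7, 17 of the 28 were listed. Of the 22, 6 were absent from the Huh7 list: the growth-control factor MYC, the antiproliferative factor BTG2, the RNA-decay factor ZFP36, the zinc finger factors KLF6 and KLF10, and IER3, a regulator of cell death. The 16 shared genes took in the AP-1 components FOS, FOSB, FOSL1, JUN, JUNB and JUND, with all 3 JUN genes and 3 of 4 FOS genes listed, and the zinc finger factors EGR1 and EGR3. The MAP kinase phosphatase DUSP1, the matrix protein CCN2 and the orphan receptor NR4A1 were also shared. FOSL2, EGR2, EGR4, CCN1, NR4A2 and NR4A3 were not listed in HepG2.

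The integrated stress and unfolded protein response list had 24 of 33 members listed (72.7%), against 19 in Huh7. At the head of these pathways, the sensor kinases EIF2AK3 (PERK, of the endoplasmic reticulum) and EIF2AK2 (PKR, of double-stranded RNA) were listed and absent from the Huh7 list, whereas EIF2AK1, the heme-regulated kinase, and EIF2AK4, the amino acid sensor, were listed in neither. The sensor ERN1 was listed in both lines, and its target XBP1, a transcription factor, was absent from the Huh7 list. ATF6 and ATF6B, the membrane-bound factors of the remaining branch, were not listed. Downstream, ATF4 and the factors it works with, ATF3, DDIT3 and CEBPB, were listed in both lines, while CEBPG, a partner of ATF4, and NUPR1, a stress-induced chromatin protein, were absent from the Huh7 list. The lipoprotein receptor VLDLR was the last of the 6 absent from it. Effectors listed in both lines included the chaperone HSPA5, the translation-restoring phosphatase subunit PPP1R15A, the pseudokinase TRIB3, the glutathione-degrading enzyme CHAC1, the asparagine synthetase ASNS and the secreted factors FGF21, GDF15 and STC2. The cystine carrier SLC7A11, another target of ATF4, was listed in Huh7 and not in HepG2.

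**Figure D1:**
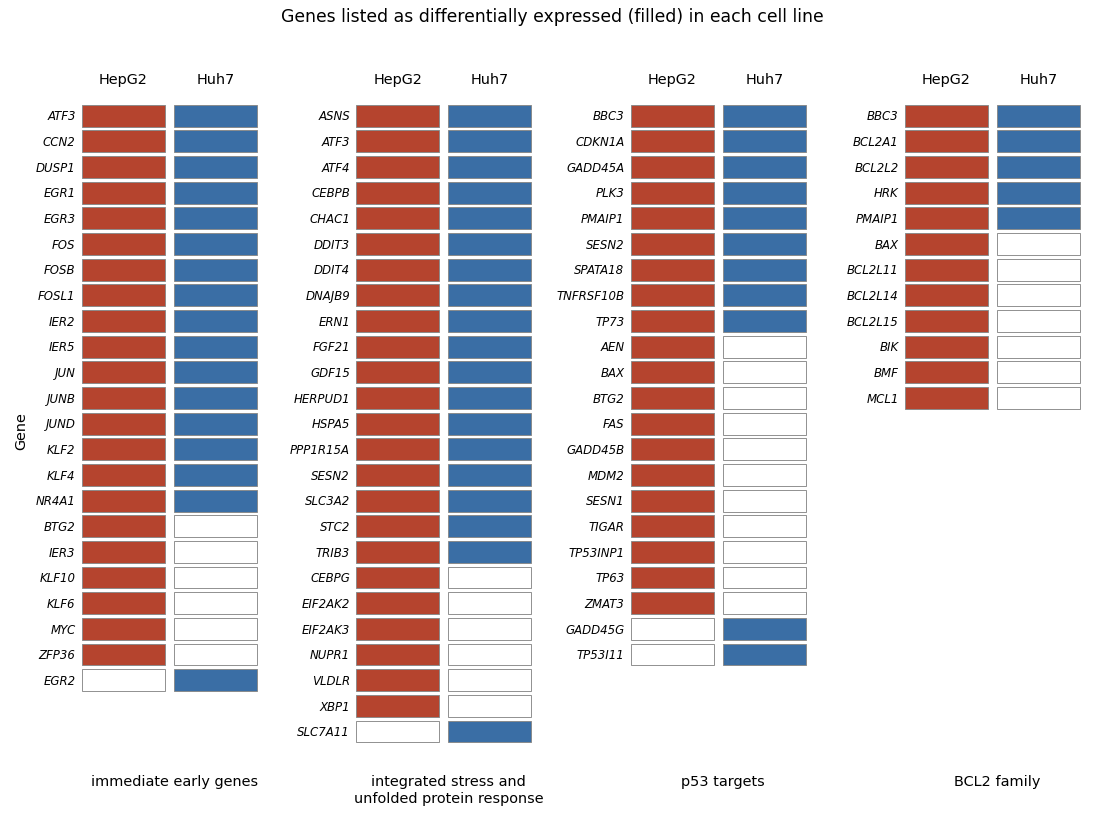
Members of 4 gene lists that were listed in at least 1 line (rows, in italics) and whether each was listed as differentially expressed in HepG2 (left column of each block, red) or Huh7 (right column, blue). An empty box means not listed. Among immediate early genes 22 of all 28 members were filled for HepG2, among stress response genes 24 of 33, among p53 genes 20 of 33 and among the BCL2 family 12 of 21.

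Several stress response promoters carry the composite C/EBP-ATF element, at which ATF4 dimers are known to bind. The letters TGATGNAA were searched on both strands from 250 bases before to 50 bases after each annotated start (RefSeq, GRCh38.p14), and a gene counted if any of its starts had a match. Of the 33 genes, 30 had a window. A match was found in 7 of the 23 listed genes with a window (30.4%), in 1 of the 7 not listed (14.3%) and in 3.63% of all 15307 protein-coding genes with a window. The 7 listed genes were ASNS, ATF3, CEBPG, CHAC1, FGF21, HERPUD1 and SLC3A2, and the gene not listed was PPP1R15B. The 2 windows below, the 150 bases before the most upstream start, are shown because the match lies close to the start in each: it begins 68 bases before the start in ASNS (chr7:97872409-97872558, minus strand) and 54 bases before it in FGF21 (chr19:48755374-48755523, plus strand). Capitals mark the match, which is on the reverse strand in FGF21.
ASNS: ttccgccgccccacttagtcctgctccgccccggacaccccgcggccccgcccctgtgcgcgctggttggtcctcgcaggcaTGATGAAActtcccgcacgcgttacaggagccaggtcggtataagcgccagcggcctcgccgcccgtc
FGF21: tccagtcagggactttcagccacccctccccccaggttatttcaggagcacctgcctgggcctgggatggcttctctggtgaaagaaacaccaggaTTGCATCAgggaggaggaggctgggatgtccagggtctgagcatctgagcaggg

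Heat shock proteins and chaperones, which refold or remove damaged proteins, did not stand above the background as a family: 18 of 78 were listed (23.1%). The inducible cytosolic HSP70 genes HSPA1A, HSPA1B and HSPA6 were listed in both lines, as were the HSP40 cochaperone DNAJB1, the small heat shock protein HSPB8 and its partner BAG3. Those absent from the Huh7 list were DNAJC12, DNAJC28 and HSPB7. HSPA1A and HSPA1B encode almost the same protein, and reads could be shared between them. The chaperones HSPA8, HSP90AA1, HSP90AB1 and HSPD1 and the small heat shock protein HSPB1 were not listed. The heat shock element, searched as GAANNTTC on both strands in the same windows, was found in 7 of 16 listed genes (43.8%), 11 of 54 not listed (20.4%) and 7.41% of all genes with a window. The genes with it and not listed included HSPA8, HSP90AA1, HSP90AB1, HSPB1 and HSPD1. In DNAJB6, which was listed and is not shown, the match begins 131 bases before the start. Windows of 4 listed genes are shown because the pattern recurs in them at 69 to 106 bases before the start: HSPA1A (chr6:31815393-31815542), HSPA1B (chr6:31827588-31827737), HSPA6 (chr1:161524390-161524539) and HSPB8 (chr12:119178781-119178930), all on the plus strand, with the match in capitals.
HSPA1A: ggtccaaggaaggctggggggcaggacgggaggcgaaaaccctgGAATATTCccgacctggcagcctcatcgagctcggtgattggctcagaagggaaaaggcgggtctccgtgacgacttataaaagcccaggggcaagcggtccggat
HSPA1B: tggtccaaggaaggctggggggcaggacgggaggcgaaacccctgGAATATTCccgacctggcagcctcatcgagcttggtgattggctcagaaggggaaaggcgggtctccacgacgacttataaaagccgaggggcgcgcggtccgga
HSPA6: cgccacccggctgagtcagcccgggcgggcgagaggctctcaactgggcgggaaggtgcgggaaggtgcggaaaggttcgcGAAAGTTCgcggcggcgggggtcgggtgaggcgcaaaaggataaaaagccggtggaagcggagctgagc
HSPB8: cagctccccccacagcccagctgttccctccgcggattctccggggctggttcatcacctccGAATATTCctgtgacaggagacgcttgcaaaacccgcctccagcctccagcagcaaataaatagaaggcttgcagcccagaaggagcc

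The list of p53 family members, regulators and targets had 20 of 33 genes listed (60.6%) in HepG2 and 11 (33.3%) in Huh7. The broader GO term for signal transduction by p53 class mediator had 61 of 247 (24.7%) in HepG2, near the GO background of 21.6%. Those absent from the Huh7 list numbered 11: MDM2, the ubiquitin ligase of p53, the death genes BAX and FAS, the exonuclease AEN, BTG2, the stress gene GADD45B, the RNA-binding protein ZMAT3, the metabolic regulators SESN1 and TIGAR, the autophagy-linked TP53INP1 and the p53 relative TP63. The 9 shared genes were the cyclin-dependent kinase inhibitor CDKN1A, BBC3 and PMAIP1 (PUMA and NOXA, which trigger mitochondrial death), the death receptor TNFRSF10B, GADD45A, SESN2, the kinase PLK3, the mitochondrial quality factor SPATA18 and TP73. The 13 members not listed in HepG2 included the repair genes XPC, DDB2 and RRM2B, none of which was in the Huh7 list either.

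The BCL2 family, which decides whether the mitochondrial outer membrane is opened during apoptosis, had 12 of 21 members listed (57.1%) in HepG2 and 5 (23.8%) in Huh7. The 5 shared genes were the BH3-only killers BBC3, PMAIP1 and HRK and the survival proteins BCL2A1 and BCL2L2. A further 7 were absent from the Huh7 list: the pore former BAX, the BH3-only killers BCL2L11 (BIM), BIK and BMF, the survival protein MCL1, and BCL2L14 and BCL2L15. BCL2, BCL2L1, BAD, BAK1 and BID were not listed in either line. Caspases and death receptors, in contrast, stood close to the background with 9 of 35 (25.7%): CASP1, CASP2, CASP4, CASP10 and FAS were absent from the Huh7 list, and CASP6, TNFRSF10B, TNFRSF10C and TNFRSF10D were shared. Autophagy genes had 18 of 45 listed (40%), among them the initiation factors ATG13, ATG14 and RB1CC1, the protease ATG4D, the membrane tags MAP1LC3A and MAP1LC3B and the receptor OPTN, which were absent from the Huh7 list. The GO term autophagy, which is broader, had 108 of 450 (24%), against a GO background of 21.6%. The KEGG pathway for regulation of autophagy had 6 of 39 (15.4%), against a median KEGG share of 26.1%. Cyclins, their kinases and inhibitors and the E2F factors had 23 of 67 (34.3%), of which the mitotic cyclin CCNB1, CCNB3, CDK3, CDK6, CDK7, CDK9 and CDK18 were absent from the Huh7 list. Among the kinase inhibitors of this list, 5 of 7 were listed (CDKN1A, CDKN1C, CDKN2B, CDKN2C and CDKN2D), each also in Huh7.

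In mitochondria the 2 genomes of the respiratory chain were listed very unequally. Of the 13 proteins encoded in mitochondrial DNA, 8 were listed (61.5%): the complex I subunits MT-ND3, MT-ND4L, MT-ND5 and MT-ND6, cytochrome b (MT-CYB) of complex III, MT-CO3 of complex IV, and MT-ATP6 and MT-ATP8 of the ATP synthase. MT-ND6, the only one of these proteins encoded on the light strand, was the single member listed in Huh7. Of the 80 nuclear genes of the chain and the ATP synthase, 4 were listed (5.00%): NDUFA9 and NDUFC2 of complex I and COX6B1 and COX7B2 of complex IV, none of them in Huh7. MT-ATP6 overlaps MT-ATP8 and MT-ND4L overlaps MT-ND4 on the same strand, so reads in the overlaps cannot be assigned to 1 gene. The 13 genes lie together in 1 small genome and were compared between single libraries, so their calls may not be independent of each other. Mitochondrial ribosomal proteins were also below the background, with 8 of 78 (10.3%): MRPL1, MRPL10, MRPL15, MRPL16, MRPL35, MRPS2, MRPS34 and MRPL53.

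Genes tied to the agents themselves gave low or middling shares. Of the 29 LND targets and genes of lactate handling, 8 were listed (27.6%): hexokinase HK2, the lactate exporter SLC16A3 (MCT4) and the lactate dehydrogenase LDHD were absent from the Huh7 list, and HK3, HKDC1, the testis-type LDHC and the carriers SLC16A4 and SLC16A7 were shared. In the wider SLC16 carrier family, 8 of 14 were listed. Heme and porphyrin handling had 3 of 24 (12.5%), the heme-degrading HMOX1, the heme carrier HPX and the transporter ABCB10, all shared with Huh7, in which 7 were listed. Antioxidant and NRF2 genes had 11 of 43 (25.6%): FTH1 and FTL of the iron store ferritin, GCLM of glutathione synthesis, HMOX1, the small MAF factors MAFF, MAFG and MAFK and the thioredoxin inhibitor TXNIP were shared, and SOD2 (mitochondrial superoxide dismutase), SESN3 and TXNRD2 were absent from the Huh7 list. Metallothioneins, which bind metals, had 3 of 12 (MT1G, MT4 and MT1X). Of the hypoxia response genes, 11 of 29 were listed (37.9%), with the carbonic anhydrase CA9, the oxygen sensor EGLN3, the hormone EPO, HK2, MXI1 and the glycolytic regulator PFKFB3 absent from the Huh7 list and ADM, ANKRD37, BNIP3L, SLC2A3 and VEGFA shared.

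**Figure D2:**
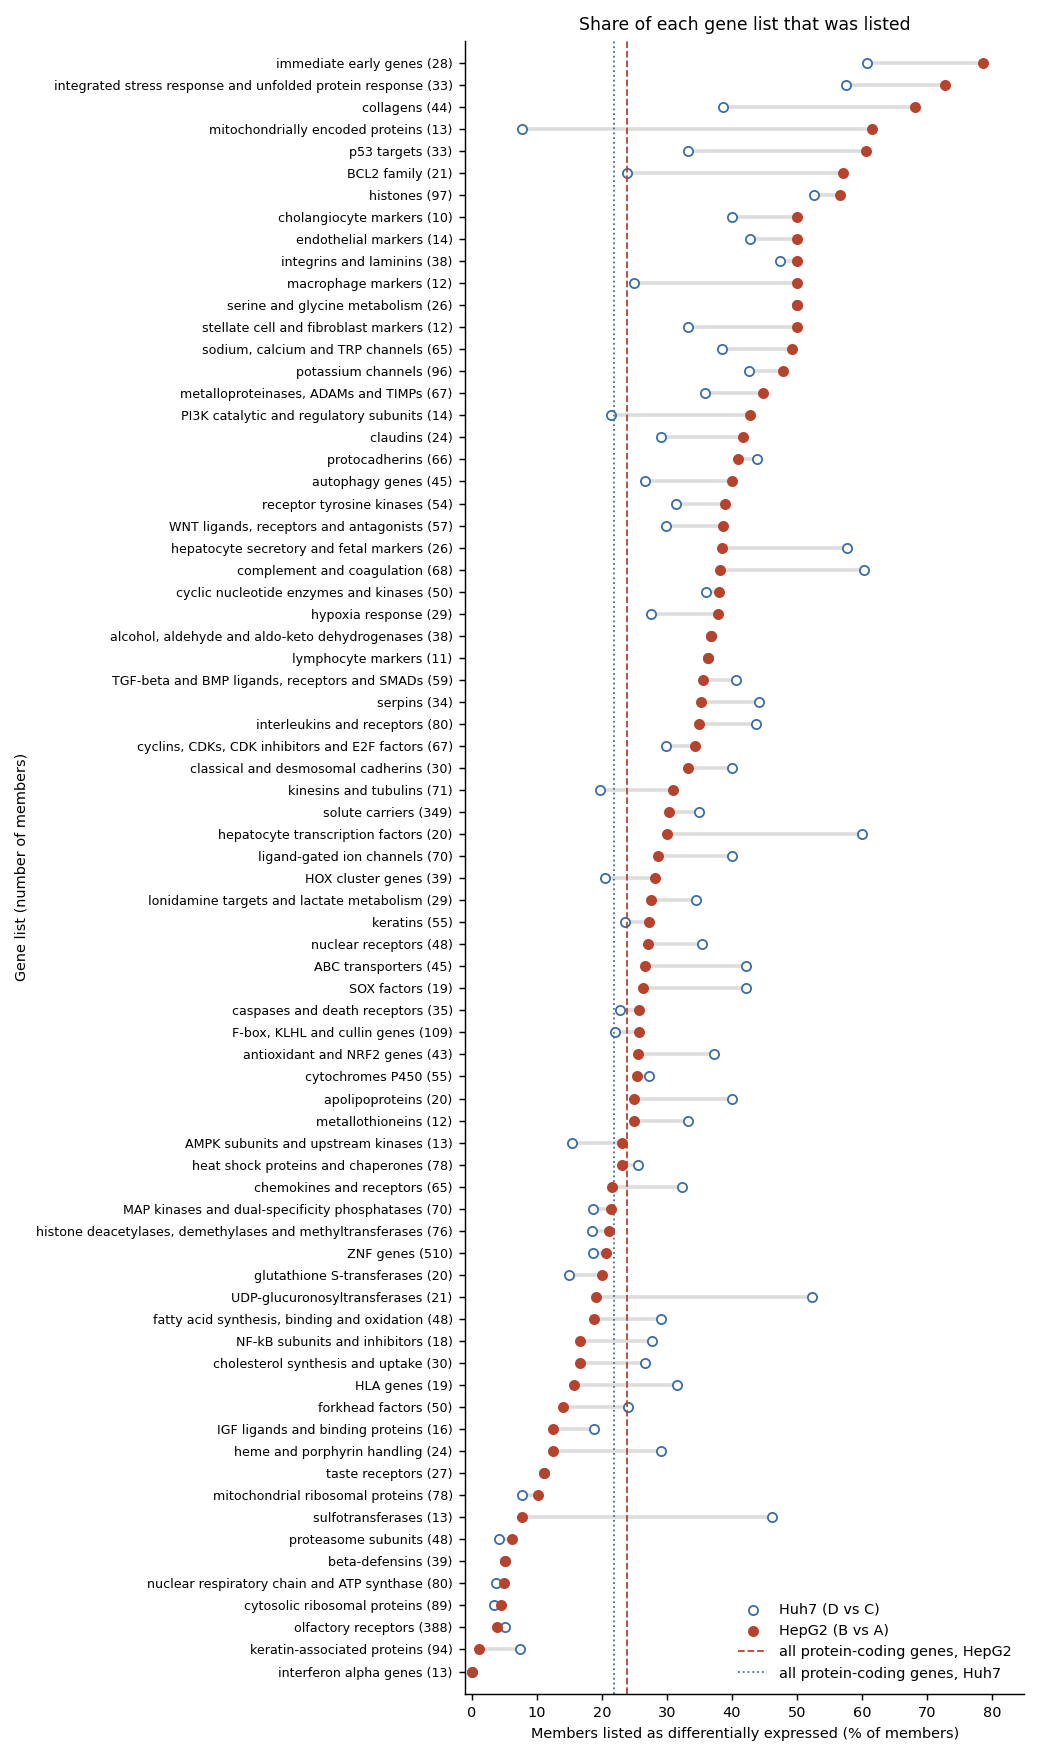
Percent of members listed as differentially expressed for each of the 74 gene lists (number of members in parentheses), in HepG2 (red filled circles) and Huh7 (blue open circles); dashed and dotted lines give all protein-coding genes, 23.9% and 21.9%. Immediate early genes stand highest in HepG2 at 78.6% and interferon alpha genes lowest at 0%.

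Collagens, the main structural proteins of the extracellular matrix, had 30 of 44 listed (68.2%) in HepG2 and 17 (38.6%) in Huh7. Of the 30, 16 were absent from the Huh7 list, in order of name the first 12 being COL13A1, COL15A1, COL16A1, COL17A1, COL18A1, COL23A1, COL24A1, COL26A1, COL28A1, COL2A1, COL3A1 and COL4A2. The basement membrane collagens of type IV had 5 of 6 listed, and the fibril-forming group 6 of 11; COL1A1 and COL1A2, the chains of the most abundant collagen of connective tissue, were not listed. Integrins and laminins, which join cells to that matrix, had 19 of 38 (50%), with ITGA4, ITGA6, ITGA8, ITGAV, ITGAX, ITGB3, ITGB7, LAMB1 and LAMC3 absent from the Huh7 list. Metalloproteinases, ADAMs and their TIMP inhibitors had 30 of 67 (44.8%). Within them, the ADAMTS proteases, which cut proteoglycans and procollagens, had 11 of 19, the MMPs 10 of 23 and the ADAMs 7 of 20. ADAMTS1, ADAMTS5, ADAMTS9, MMP13 and the inhibitor TIMP3 were among the 15 absent from the Huh7 list.

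Junction genes were more mixed. Claudins, which seal tight junctions, had 10 of 24 listed (41.7%): CLDN2, CLDN6, CLDN7, CLDN19 and CLDN22 were absent from the Huh7 list and CLDN4, CLDN5, CLDN11, CLDN12 and CLDN16 were shared. Classical and desmosomal cadherins had 10 of 30 (33.3%), with CDH2 (N-cadherin), CDH4, CDH18 and CDH23 absent from the Huh7 list and CDH1 (E-cadherin), CDH5, CDH12, CDH15, CDH17 and DSG4 shared. Protocadherins had 27 of 66 (40.9%). The clusters of this family differed: 12 of 15 alpha genes were listed, 2 of 16 beta genes and 9 of 22 gamma genes. The alpha genes share their last exons, as do the gamma genes, and over the family the median member had 63.3% of its 75-base stretches found in no other gene, so single clustered members are uncertain. Keratins had 15 of 55 (27.3%) and kinesins and tubulins, the motors and rails of the spindle, 22 of 71 (31.0%), among the latter KIF14, KIF18B, KIF20B, KIF4A and KIFC1 absent from the Huh7 list.

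Markers of other liver cell types were listed as well. Of the stellate cell and fibroblast markers, which share COL3A1 with the collagens, 6 of 12 were listed (COL3A1, DCN, DES, PDGFRB, RGS5 and TAGLN). Of the endothelial markers 7 of 14 were listed (CDH5, CLDN5, EMCN, LYVE1, PECAM1, TEK and VWF), of the macrophage markers 6 of 12 (C1QC, CD14, CD5L, CD68, CSF1R and PTPRC), of the cholangiocyte markers 5 of 10 (AQP1, CFTR, EPCAM, KRT7 and SPP1) and of the lymphocyte markers 4 of 11 (CD4, CD79A, GNLY and MS4A1). The summed level of these markers cannot be given from gene names alone, and their part in the counts of matrix genes was not tested. ACTA2, COL1A1, COL1A2, STAB1, STAB2, CD163, MARCO, CD3D, CD3E, KRT19 and SOX9, defining markers of these cell types, were not listed.

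Ion channels made up another large group. Potassium channels, which set the resting potential, had 46 of 96 listed (47.9%), with 21 of 40 voltage-gated subunits, 7 of 16 inward rectifiers, 5 of 15 two-pore channels and 6 of 12 calcium-activated, sodium-activated and related channels. Of the 46, 20 were absent from the Huh7 list (43.5%, against 52.3% of the whole HepG2 list). Among them were KCNB2, KCNC2, KCNC4, KCNE5, KCNG1 and KCNH2, the cardiac repolarizing channel. Sodium, calcium and TRP channels had 32 of 65 (49.2%): the voltage-gated sodium channels SCN7A, SCN8A and SCN11A, the T-type calcium channel CACNA1H and the heat and capsaicin receptor TRPV1 were among 14 absent from the Huh7 list. Ligand-gated channels stood lower, with 20 of 70 (28.6%), among them CHRNA5, CHRNA10, CHRNB1, CHRNB2, GRIA4, P2RX4 and P2RX5, which were absent from the Huh7 list. Enzymes and kinases of cyclic nucleotides had 19 of 50 (38.0%), with ADCY3, the guanylate cyclase GUCY2C, the phosphodiesterases PDE1B, PDE1C, PDE3B, PDE4A, PDE6C and PDE6G and the protein kinase A subunit PRKAR1A absent from the Huh7 list.

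Solute carriers had 106 of 349 members listed (30.4%), with 42 absent from the Huh7 list, and their subfamilies differed. Of the neurotransmitter and amino acid carriers of SLC6, 9 of 19 were listed, against 2 of 13 of the SLC7 and 1 of 11 of the SLC38 amino acid carriers. The glucose carriers of SLC2 had 3 of 14, the mitochondrial carriers of SLC25 13 of 48, the organic ion carriers of SLC22 7 of 22, SLCO 4 of 13, and the zinc carriers of SLC30 and SLC39 3 of 10 and 3 of 14. ABC transporters had 12 of 45 (26.7%): ABCA9, ABCB4, ABCC4 and ABCC12 were absent from the Huh7 list, and ABCA6, ABCA8, ABCA13, ABCB10, ABCC9, ABCD2, ABCG1 and ABCG4 were shared. ABCB4 exports phospholipid into bile, and ABCG1 exports cellular cholesterol.

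Among receptors and ligands, receptor tyrosine kinases had 21 of 54 listed (38.9%), and 14 of these were absent from the Huh7 list, among them CSF1R, DDR1, EPHA4, EPHA5, EPHA6, EPHB2, FGFR2, MET, MUSK, NTRK2, NTRK3, ROS1 and TEK. Of the 14 ephrin receptors, which guide cells and axons by contact, 6 were in the HepG2 list. WNT ligands, receptors and antagonists had 22 of 57 (38.6%), with 14 absent from the Huh7 list, among them the ligands WNT4, WNT5A, WNT5B, WNT7B and WNT16, the receptors FZD2 and FZD8, and the pathway's feedback inhibitors AXIN2, NOTUM and ZNRF3. TGF-beta and BMP genes had 21 of 59 (35.6%), with the ligands BMP4, BMP5 and BMP10 and the receptors ACVR1C, AMHR2, BMPR1A, TGFBR1 and TGFBR3 absent from the Huh7 list. IGF ligands, receptors and binding proteins had 2 of 16 (IGF1 and IGFBP1). The subunits of PI3K had 6 of 14 (42.9%), PIK3C2B, PIK3C2G and the regulatory subunits PIK3R1 and PIK3R2 absent from the Huh7 list and PIK3CD and PIK3CG shared; the catalytic PIK3CA was not listed. AMPK genes, the energy sensor, had 3 of 13 (CAB39, CAMKK1 and PRKAG2), and MAP kinases with their dual-specificity phosphatases 15 of 70 (21.4%), DUSP6, DUSP10 and DUSP11 among those absent from the Huh7 list.

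Immune signalling genes were spread around the background. Interleukins and their receptors had 28 of 80 listed (35.0%), 11 of them absent from the Huh7 list, including IL15 and its receptor IL15RA, IL12RB1 and IL21R. Chemokines and receptors had 14 of 65 (21.5%), with CCL22, CXCL14, XCL1 and the receptors ACKR4, CCR3, CCR4 and CX3CR1 absent from the Huh7 list. Of the NF-kB subunits and inhibitors 3 of 18 were listed: NFKBIA, the inhibitor that NF-kB itself induces, was absent from the Huh7 list, and BCL3 and RELB were shared. HLA genes had 3 of 19 (HLA-DPB1, HLA-DOB and HLA-E). Complement and coagulation genes, many of them for proteins secreted by hepatocytes, had 26 of 68 (38.2%) in HepG2 and 41 (60.3%) in Huh7. C1QC, which is also among the macrophage markers above, C1R, C2, F13B, F2R and SERPING1 were absent from the Huh7 list. Serpins, many of which inhibit clotting proteases, had 12 of 34 (35.3%): SERPINB12, SERPING1 and the collagen chaperone SERPINH1 were absent from the Huh7 list, and the shared ones included SERPINB7, SERPINB8, SERPINC1, SERPIND1, SERPINE2, SERPINE3, SERPINF2 and SERPINI2.

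Genes of hepatocyte identity had middling shares in HepG2. Of the hepatocyte transcription factors, 6 of 20 were listed (30%), against 12 in Huh7. CEBPA, CEBPB, GATA4, HNF4A and the bile acid receptor NR1H4 were among them and were shared. Secretory and fetal liver markers had 10 of 26 (38.5%), against 15 in Huh7: the fetal glypican GPC3 and ITIH4 were absent from the Huh7 list, and alpha-fetoprotein (AFP), albumin (ALB), ceruloplasmin (CP), FETUB, HPX, HRG, ITIH3 and TTPA were shared. Apolipoproteins had 5 of 20 (25.0%): APOE, APOA4 and APOL1 were absent from the Huh7 list, and APOD and APOL2 were shared. Nuclear receptors, ligand-regulated transcription factors, had 13 of 48 (27.1%), with PPARA, a regulator of fatty acid oxidation, NR2F6, NR6A1, RARB and RORA absent from the Huh7 list.

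Shares in drug and lipid metabolism varied by family, from below the background to well above it. Cytochromes P450 had 14 of 55 listed (25.5%): CYP7A1, the rate-limiting enzyme of bile acid synthesis, the drug-metabolizing CYP2A6, CYP2C8, CYP2C18 and CYP2S1, CYP4F3 and CYP27C1 were absent from the Huh7 list. UDP-glucuronosyltransferases, which conjugate bilirubin and drugs, had 4 of 21 (UGT1A6, UGT2A1, UGT2B4 and UGT3A1) against 11 in Huh7. The UGT1A genes share their last exons, and 7 members of that list had under 50% of their 75-base stretches in no other gene. Sulfotransferases had 1 of 13, SULT1A3, against 6 in Huh7; SULT1A3 has a near-identical copy, SULT1A4, and is uncertain. Glutathione S-transferases had 4 of 20 (GSTA4, GSTM4, GSTM5 and GSTO2), and alcohol, aldehyde and aldo-keto dehydrogenases 14 of 38 (36.8%), with ADH1A, ADH1B, ADH4, AKR1B10, ALDH1A3 and ALDH4A1 absent from the Huh7 list. Cholesterol genes had 5 of 30 (16.7%): INSIG1, the brake on cholesterol synthesis, the uptake protein NPC1L1 and TM7SF2 were among those absent from the Huh7 list, and ACAT2 was shared. Fatty acid genes had 9 of 48 (18.8%), among them FABP4, HADH, PPARA, SCD5, ACSL5 and the droplet proteins PLIN2, PLIN4 and PLIN5.

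Serine and glycine metabolism, in which ATF4 is known to act, stood apart among metabolic lists with 13 of 26 (50%), the same number as in Huh7. PHGDH and PSAT1, the first enzymes of serine synthesis, the folate enzymes MTHFD2 and ALDH1L2, CBS and CTH of cysteine synthesis, the glycine-cleaving GLDC, GAMT and GNMT were shared. PSPH, the last enzyme of serine synthesis, GCSH, MTHFD1 and DMGDH were absent from the Huh7 list. The aminoacyl-tRNA synthetases of the cytosol, which load amino acids onto tRNA, had 7 of 20 listed (AARS1, CARS1, GARS1, MARS1, SARS1, WARS1 and YARS1), of which 4 were absent from the Huh7 list. The GO term tRNA aminoacylation had 11 of 68 (16.2%), below the GO background of 21.6%. The KEGG pathway of aminoacyl-tRNA biosynthesis had 11 of 66 (16.7%), below the median KEGG share of 26.1%.

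Histones, around which DNA is wound, had 55 of 97 genes listed (56.7%) in HepG2 and 51 (52.6%) in Huh7. All classes took part: 7 of 10 H1 linker genes, 14 of 28 H2A, 11 of 23 H2B, 13 of 21 H3 and 10 of 15 H4. The centromeric CENPA was counted as a member of the H3 class and was not listed. In order of name, the first 12 of the 16 absent from the Huh7 list were H1-1, H1-3, H1-6, H1-8, H2AB1, H2AC20, H2AJ, H2BC1, H2BC21, H3-4, H3-5 and H3C12. Most histone genes lie in clusters, and the longest unbroken run of listed genes anywhere in the annotation was 14 neighbours on chromosome 6, from H2BC1 to HIST1H3C, of which 6 were absent from the Huh7 list. That run also took in genes that are not histones, the carriers SLC17A1, SLC17A2, SLC17A3 and SLC17A4 and TRIM38. A further run of 7 on chromosome 6 went from H2BC13 to H4C12. Most replication-dependent histone mRNAs lack a poly(A) tail, and the libraries had been depleted of ribosomal RNA without poly(A) selection. Of the 97 genes, 22 had under 50% of their 75-base stretches in no other gene, and 11 of these were listed, so calls on single copies are uncertain.

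The TATA box, searched as TATAAA on both strands, was found near a start in 31 of 47 listed histone genes with a window (66.0%), 15 of 36 not listed (41.7%) and 12.4% of all genes with a window. In a head-to-head pair the match counted for a gene can be its neighbour's box. Variant genes were unevenly spread, with more of them among the members not listed. Without a match there were CENPA, H2AB2, H2AZ2, H2BW1, H3-3A, H3Y1 and MACROH2A1, and with a match H2AP, H2AX, H2AZ1 and H3-3B. Listed variants included H2AJ and MACROH2A2, both without a match. The part of gene class in these shares was not tested. Windows of 4 listed genes are shown: H2AC13 (chr6:27808023-27808172, plus strand) and H2BC13 (chr6:27807930-27808079, minus strand), neighbours whose windows overlap head to head, H4C11 (chr6:27823942-27824091, plus strand), also in the Huh7 list, and H1-1 (chr6:26017788-26017937, minus strand), absent from it. The capitals mark the TATA letters, which begin 30 or 31 bases before the start in all 4.
H2AC13: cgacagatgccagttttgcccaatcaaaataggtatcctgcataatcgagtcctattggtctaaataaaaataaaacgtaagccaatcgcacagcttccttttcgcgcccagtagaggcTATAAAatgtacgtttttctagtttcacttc
H2BC13: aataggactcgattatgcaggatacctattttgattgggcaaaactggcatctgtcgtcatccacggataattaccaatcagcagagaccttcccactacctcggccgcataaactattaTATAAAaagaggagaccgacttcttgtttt
H4C11: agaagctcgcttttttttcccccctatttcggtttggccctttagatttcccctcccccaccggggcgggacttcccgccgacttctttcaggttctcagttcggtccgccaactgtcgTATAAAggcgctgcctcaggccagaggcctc
H1-1: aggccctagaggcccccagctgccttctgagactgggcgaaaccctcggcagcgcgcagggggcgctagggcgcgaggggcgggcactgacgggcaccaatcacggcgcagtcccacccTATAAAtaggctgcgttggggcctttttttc

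**Figure D3:**
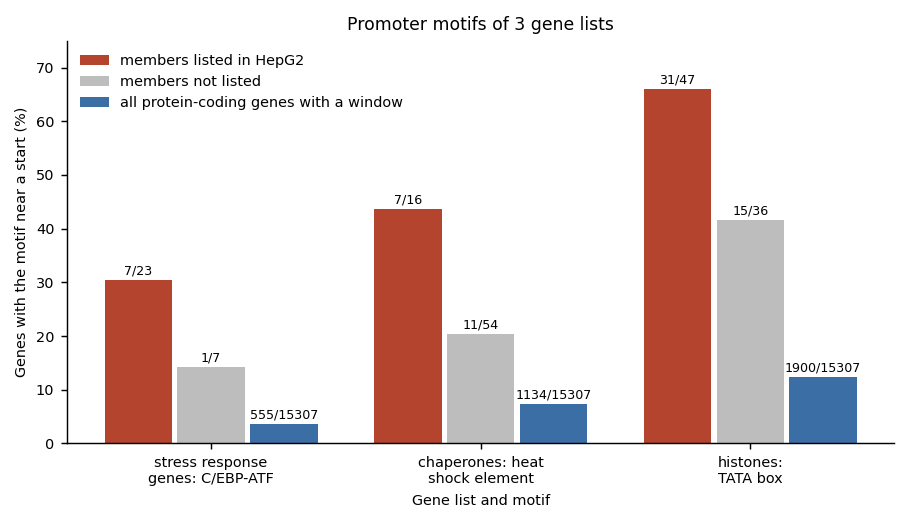
Percent of genes with a motif match from 250 bases before to 50 bases after any annotated start, for listed members (red), members not listed (grey) and all 15307 protein-coding genes with a window (blue). The numbers above the bars are genes with a match over genes with a window. Listed members stood highest in each of the 3 pairs shown, at 30.4%, 43.8% and 66.0%, and the motifs were chosen after their values were seen. Other motifs could go the other way. In histones the metal response element (TGCNCNC) was found in 31.9% of listed and 66.7% of not listed members.

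Other chromatin and transcription factor families gave shares near or below the background. Histone deacetylases, demethylases and methyltransferases had 16 of 76 listed (21.1%), among them the deacetylases HDAC9, SIRT1 and SIRT6 and the demethylases KDM4C, KDM6A, KDM7A and KDM8, absent from the Huh7 list. HOX genes, which pattern the body axis, had 11 of 39 (28.2%): HOXA3, HOXB8, HOXC4, HOXC5, HOXC8, HOXC12, HOXC13 and HOXD13 were absent from the Huh7 list, and HOXA5, HOXA13 and HOXB9 were shared. Forkhead factors had 7 of 50 (FOXB1, FOXF2, FOXD1, FOXJ1, FOXN3, FOXO3 and FOXO4) and SOX factors 5 of 19 (SOX4, SOX5, SOX8, SOX15 and SOX30). The large family of ZNF genes had 105 of 510 (20.6%), and F-box, KLHL and cullin genes, parts of ubiquitin ligases, 28 of 109 (25.7%), with FBXL12, FBXL14 and KLHL7 among those absent from the Huh7 list.

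The lowest shares belonged to protein machines and, separately, to families of other tissues. All shares are over annotated genes, whether or not they were expressed in HepG2. Without levels, silent genes cannot be set apart from expressed genes that were not called, so low shares need not have the same meaning. Cytosolic ribosomal proteins had 4 of 89 listed (4.49%), RPLP1, RPS19, the p53-linked RPS27L and the muscle paralog RPL3L. Of the proteasome subunits 3 of 48 were listed (6.25%): the inducible immunoproteasome subunits PSMB8 and PSMB9 were absent from the Huh7 list, and the activator PSME3 was shared. Olfactory receptors had 15 of 388 (3.87%), keratin-associated proteins of hair 1 of 94 (KRTAP21-2), beta-defensins 2 of 39 (DEFB1 and DEFB131B), taste receptors 3 of 27 (TAS1R1, TAS1R2 and TAS2R5) and interferon alpha genes 0 of 13.

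GO terms gave a view of the same list without hand-made families. The table held 7490 terms with 10 to 500 background genes and at least 1 listed gene, and 85.6% of the listed genes stood under one of them. Of these terms, 65.9% had more than 21.6% of their background genes listed, and 484 (6.46%) had 2 times that share or more. Terms without any listed gene are not in the table, so these shares are upper values. Ordered by the number of listed genes above the number at the background share, and leaving out terms that repeated earlier ones, the first was metal ion transmembrane transporter activity, with 165 of 449 genes listed where the background share gives 97.0. The term takes in the channels above and, absent from the Huh7 list, the sodium-calcium exchanger SLC8A1 and the calcium release channel ITPR1.

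Next came extracellular matrix, with 153 of 406 genes listed (37.7%), and muscle cell differentiation, with 171 of 492 (34.8%). In the first, the proteoglycan DCN and the axon guidance ligand EFNA5 and in the second the Notch target HES1 and the growth factor IGF1 were absent from the Huh7 list. Development and tissue terms followed: developmental growth (156 of 470), urogenital system development (121 of 330) and circulatory system process (148 of 467). Endoplasmic reticulum lumen, through which secreted proteins pass, had 114 of 312 (36.5%). Signal and transcription terms were cellular response to organic cyclic compound (145 of 464), activating RNA polymerase II transcription factor activity (146 of 478), receptor complex (126 of 386), myeloid cell differentiation (133 of 443), negative regulation of protein phosphorylation (103 of 349) and cellular response to extracellular stimulus (120 of 441).

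Terms of transport, proteolysis and metabolism were organic anion transport (140 of 462), regulation of endopeptidase activity (134 of 456), glycoprotein metabolic process (121 of 417) and alpha-amino acid metabolic process (86 of 267, 32.2%), the last with the aminotransferases GOT1, AADAT and AGXT absent from the Huh7 list. Protein-DNA complex (79 of 208, 38.0%) held the histones, cell-cell junction had 132 of 465, and homophilic cell adhesion, the cadherins, 63 of 168 (37.5%). Together the 20 terms held 1695 listed genes, 35.4% of the list.

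**Figure D4:**
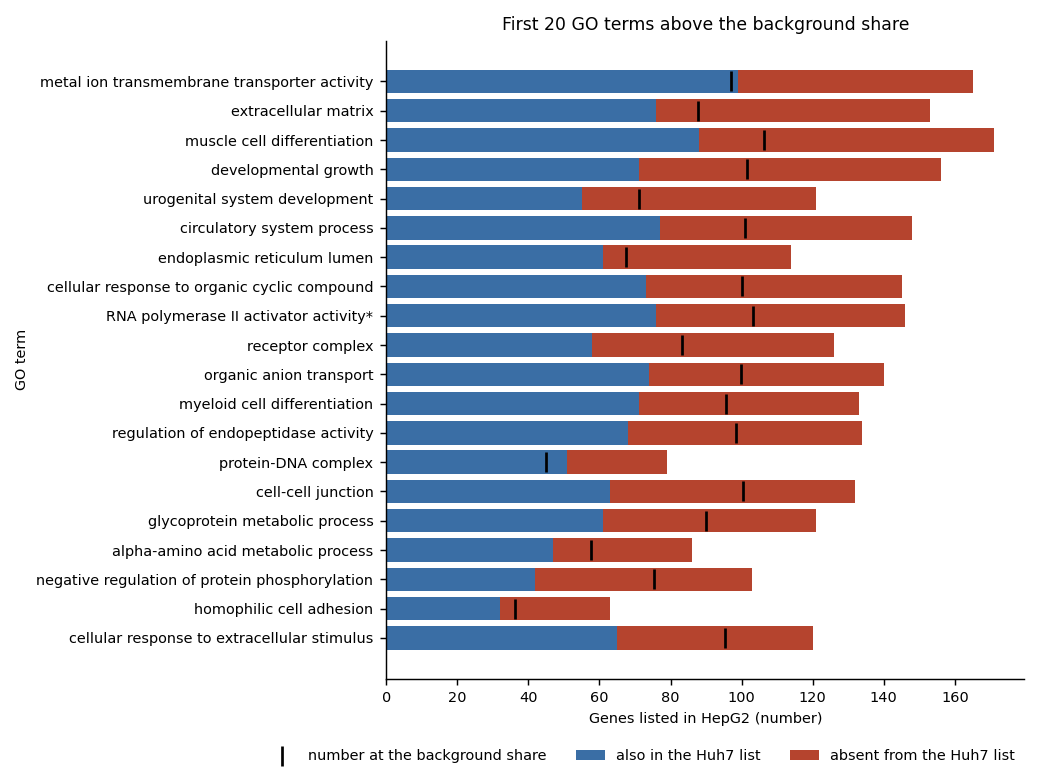
Number of HepG2-listed genes under each of the first 20 GO terms above the background share, after terms sharing 50% or more of their listed genes with earlier ones were dropped, split into genes also in the Huh7 list (blue) and genes absent from it (red); the black tick is the number at the background share of 21.6%. A gene can stand under several of these terms. Bars for all 20 terms pass their tick, and metal ion transmembrane transporter activity (165 against 97.0) is furthest above it. The term marked with an asterisk is shortened from the GO name for RNA polymerase II transcription factors that activate transcription.

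After overlapping terms were dropped in the same way, those furthest below the background share were antigen binding (14 of 422, 3.32%), RNA splicing (53 of 477, 11.1%), ribonucleoprotein complex biogenesis (58 of 484), nuclear speck (57 of 455) and gene silencing by RNA (37 of 356). Antigen processing and presentation (31 of 317), defense response to bacterium (58 of 430), mRNA catabolic process (24 of 272), antigen receptor-mediated signaling pathway (47 of 377) and complement activation, classical pathway (15 of 222) followed. These are terms of RNA processing, and of antigen receptors, antibodies and defense. Here too, background genes silent in HepG2 could not be set apart from expressed genes that were not called. Apart from the 15 assembled loci, every listed gene was protein-coding, whereas the background of 22148 was larger than the 19951 protein-coding genes. Background entries of other kinds were not set apart, and their part in these low shares was not tested. Listed genes of RNA splicing included the kinases CLK1 and CLK2 and the cold-inducible CIRBP.

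Terms chosen by name for their bearing on SDT lay on both sides of the background. Endoplasmic reticulum unfolded protein response had 23 of 54 genes listed (42.6%), response to endoplasmic reticulum stress 59 of 169 (34.9%) and intrinsic apoptotic signaling pathway 93 of 298 (31.2%), against 65 of 237 (27.4%) for the extrinsic pathway. Oxidative terms stood between these: response to reactive oxygen species had 69 of 224 (30.8%) and response to hydrogen peroxide 44 of 143 (30.8%), and response to oxidative stress had 123 of 441 (27.9%). Response to mechanical stimulus had 84 of 211 (39.8%), with 36 absent from the Huh7 list, whereas response to heat had 36 of 170 (21.2%). Nucleosome, at 58 of 113 (51.3%), and serine family amino acid biosynthetic process, at 11 of 22 (50%), had the highest shares of those chosen. Proteasome complex (4 of 85, 4.71%), ribosome (34 of 284), respiratory chain (15 of 121, 12.4%) and oxidative phosphorylation (15 of 116, 12.9%) had the lowest apart from olfactory receptor activity. Signal transduction by p53 class mediator (61 of 247, 24.7%), autophagy (108 of 450, 24%) and mitotic cell cycle phase transition (112 of 549, 20.4%) stood near the background, below the shares of the shorter p53, autophagy and cyclin lists. Of the liver terms, xenobiotic metabolic process had 26 of 112 (23.2%) in HepG2 and 43 in Huh7, and blood coagulation 103 of 364 in HepG2 and 109 in Huh7.

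**Figure D5:**
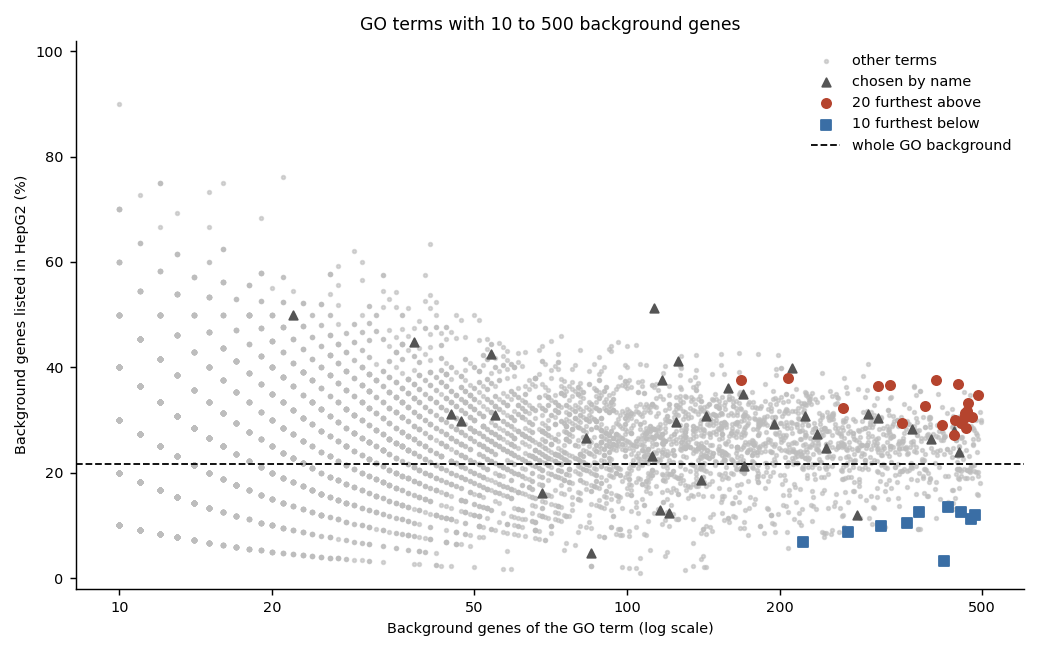
Each point is a GO term with 10 to 500 background genes, placed by its number of background genes (log scale) and the percent of them listed in HepG2; the dashed line is the whole background, 21.6%. Small terms scatter widely. Red circles are the first 20 terms above and blue squares the first 10 below after overlapping terms were dropped, so dropped terms can lie further out. The red circles reach at most 38.0%, and antigen binding lies lowest of the blue squares at 3.32%. Among the terms chosen by name, nucleosome stood at 51.3%.

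The 2502 genes absent from the Huh7 list were 11.3% of the GO background, and their own first terms overlapped the ones above. Forebrain development led with 84 of 451 background genes (18.6%), followed by developmental growth (85 of 470), extracellular matrix (77 of 406), cytosolic calcium ion homeostasis (67 of 331, 20.2%) and muscle cell differentiation (83 of 492). Pattern specification process (79 of 459), receptor complex (68 of 386), monovalent inorganic cation transport (75 of 465), lymphocyte differentiation (63 of 360) and glycerophospholipid metabolic process (67 of 400) completed the first 10.

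Single genes were also ranked by the number of specific terms that name them, which measures how much is annotated about a gene and not its change. The median listed gene stood under 16 such terms, 17 for genes shared with Huh7 and 15 for those absent from its list. WNT5A stood under 556, the bone morphogenetic protein BMP4 under 484, the deacetylase SIRT1 under 441, sonic hedgehog (SHH) under 390, the vasoconstrictor EDN1 under 380 and the T cell and epithelial factor GATA3 under 365. The nuclear protein HMGB1, which is released by dying cells, stood under 362, APOE under 337 and the caveolar coat protein CAV1 under 315. Of the genes just named, EDN1 was shared with Huh7 and the others were absent from its list, as were MYC (306) and IGF1 (303).

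The KEGG table of the same comparison named 1693 genes, 17 of them outside the GO list. Over its 272 pathways with at least 10 background genes, the median share listed was 26.1%. The highest share was that of proximal tubule bicarbonate reclamation, 12 of 23 (52.2%), which held the sodium pump beta subunits ATP1B1 and ATP1B2 and their relative ATP1B4, the water channel AQP1 and the carbonic anhydrase CA2. Carbohydrate digestion and absorption had 23 of 45 (51.1%), with the glucose carrier SLC5A1, the fructose carrier SLC2A5 and HK2 absent from the Huh7 table, and the same beta subunits appear in it again. Amino acid pathways followed with glycine, serine and threonine metabolism (20 of 40), alanine, aspartate and glutamate metabolism (17 of 35) and, further down, histidine metabolism (10 of 23).

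Matrix and histone genes filled most of the remaining places: protein digestion and absorption (42 of 89), ECM-receptor interaction (41 of 87) and systemic lupus erythematosus (62 of 136), a pathway under which KEGG places histones. African trypanosomiasis (16 of 34) and hypertrophic cardiomyopathy (36 of 83) completed the 10.

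Listed genes were found on every autosome, on X and in the mitochondrial genome. On the autosomes and X the share ran from 17.7% on chromosome 21 to 29.9% on chromosome 7, and the mitochondrial genome stood apart at 61.5%. The next gene along the chromosome was listed for 27.2% of listed genes, close to the 23.9% of all protein-coding genes. There were 22 runs of 5 or more listed neighbours, and how many that share alone would give was not computed. Among them were IL19, IL20, IL24, FCMR, PIGR, FCAMR and C1orf116 on chromosome 1, a cytokine and immunoglobulin receptor cluster, and PCDHA1 to PCDHA7 on chromosome 5. Transcript length moved with listing. In the tenth of genes with the shortest longest transcripts, 16.0% were listed, against 27.4% in the tenth with the longest, and the part of length in the family counts was not tested.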

How the data were processed

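Total RNA of HepG2 and Huh7 cells, 1 library per group, was depleted of ribosomal RNA and sequenced on a strand-keeping library kit. Per the submitters' processing notes, Bowtie2 2.2.8, HISAT2, StringTie 1.3.1 and Cuffdiff 2.1.1 were used; the study's methods name Cuffdiff and its results name another tool for the calls, which used an adjusted p under 0.05. The genome build and annotation are not given in the sources used here. The values used here are numbers of genes and gene names, deposited by the authors in GO and KEGG enrichment tables. The tables' enrichment p-values are the authors' own comparisons and were not used; depth, levels and direction are unknown, and genes without a GO term could not enter the list.

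Genes were collected as the union of names over all GO rows and matched by Ensembl identifier to GENCODE 29 protein-coding genes and to current symbols (4755 of 4783 named); counts are by identifier, so a symbol with more than 1 identifier counts more than once. No test was made. A specific term had 10 to 500 background genes; terms were ordered by listed genes minus background genes times the background share, and a term was dropped if 50% or more of its listed genes stood under earlier terms. Named by rule were the first 20 and last 10 terms, the first 10 on genes absent from the Huh7 list, up to 12 members per list beginning with those absent from the Huh7 list, the 10 genes under most terms in each set and 10 KEGG pathways. Other names, the subfamilies, the motifs and the terms chosen by name were chosen after their values were seen. The 74 lists and the members were chosen with earlier results of these data known. Uniqueness was the percent of 75-base stretches of a gene's GENCODE transcripts found in no other gene. Promoter windows (RefSeq, GRCh38.p14) matched 76.7% of protein-coding genes and were compared only in lists with at least 80% of members matched. Some genes are not reported here. Python 3 scripts (pandas, numpy and scipy) were tested on simulated lists.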

Additional observations from a re-analysis of the deposited data

How the results depend on the processing

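The size of the HepG2 list and the number of gene lists at 1.5 times the background or more stayed within 1.5 times their values under each alternative tried (4768 to 4800 genes, and 27 or 28 lists). The share absent from the Huh7 list was 49.0% with the KEGG tables alone, against 52.3%. Specific GO terms at 2 times the background share or more numbered 484; there were 180 with limits of 20 to 300 background genes (3.74% of those terms), 20 with 50 to 500 (0.705%) and 873 on the genes absent from the Huh7 list, against their own share of the background. Fewer terms qualify under the narrower limits, and small terms reach high shares on few genes. With terms dropped at 30% overlap in place of 50%, 11 of the first 20 terms were shared. Of the single lists, sulfotransferases went from 7.69% to 0%, beta-defensins from 5.13% to 8% and UDP-glucuronosyltransferases from 19.0%, below the background, to 28.6%, above it, once members under 50% unique were left out, an alternative chosen after seeing the data. Leaving out near-identical proteins was not run, for want of protein sequences. No paired analysis was possible because each group was 1 library and the lists come from no test here; for the same reason no replicate could be left out. Precision is limited by the unknown depth and by the absence of replicates.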
